A study of Homo sapiens with 2 samples.

Results

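The circadian clock genes examined here are 10 named genes of the molecular clock: PER1, PER2, PER3, CRY1, CRY2, NR1D1, NR1D2, DBP, BHLHE40 and CLOCK. The genes were chosen with earlier results of these data known. Their probe sets were then taken by name, with no filter on measured values, as those that the platform annotation assigns to exactly 1 of them. This gave 18 probe sets of 8 genes, out of 41091 such probe sets of 19775 genes on the array. PER1 and NR1D1 had no probe set assigned to them alone, so their levels are not analysed here and they enter only the search of promoters. The levels come from MDA-MB-231, an established human line of triple-negative breast cancer, 48 h after transfection with a control siRNA or with siRNA against KMO (siKMO below). KMO encodes kynurenine 3-monooxygenase, an enzyme of tryptophan breakdown. 1 Affymetrix U133 Plus 2.0 array was analysed for each condition, so no difference has a replicate check and no test was possible. The titles and genotype labels name siRNA, while the array names carry the prefix sh, common for hairpin constructs. The groups follow the titles.

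The clock is a loop of transcription that runs in most human cells with a period of about a day. CLOCK, or its relative NPAS2, pairs with BMAL1 and switches on genes that carry an E-box, among them the PER and CRY genes, whose proteins then return to the nucleus and repress the pair. A further loop runs through the nuclear receptors NR1D1 and NR1D2, which repress BMAL1, and through the ROR receptors, which activate it. DBP and its relatives TEF and HLF carry the rhythm to other genes through D-boxes, and BHLHE40 (DEC1) and BHLHE41 (DEC2) compete for the E-box as repressors. Both arrays are from a single time, and a step that sets the cells to a common phase is not given in the sources used here, so a different phase and a different average level cannot be told apart.

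Elements that clock factors bind can be looked for in the promoters of these genes. Windows from 250 bases before to 50 after a start were searched on both strands for the E-box CACGTG, its variant CACGTT, the D-box TTANNTAA and AGGTCA, the core of the element that ROR and NR1D receptors bind. The sequences are RefSeq's for GRCh38.p14, where all 10 genes matched, with 14 windows. CACGTG stood in windows of 3 of the 10 genes (PER1, NR1D2 and BHLHE40), against 8.77% of all 27305 genes in the table. CACGTT stood in 5 of 10, against 6.44%. The D-box stood in 3, against 6.92%, and AGGTCA in 2, against 16.5%. In these genes no match overlapped another. A match describes letters, not a bound site.

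The sites below belong to members whose levels are described next, 1 for each kind of element in each gene, with the matched letters in capitals and positions counted from the transcript start.
BHLHE40, 245 bases before the start, chr3:4979187-4979216, plus strand: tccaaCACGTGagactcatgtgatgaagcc
NR1D2, 155 bases before the downstream of its starts, chr3:23945954-23945983, plus strand: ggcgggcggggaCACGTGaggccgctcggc
NR1D2, 194 bases before the same start, chr3:23945915-23945944, plus strand: cgtgacgcggcaTTACATAAtgggcgctga
CLOCK, 187 bases before the downstream of its starts, chr4:55546102-55546131, minus strand: tcaccactcgggCACGTTtggagcagcgcc
CRY1, 89 bases before the start, chr12:107093621-107093650, minus strand: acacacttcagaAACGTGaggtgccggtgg
CRY2, 188 bases before the downstream of its starts, chr11:45847275-45847304, plus strand: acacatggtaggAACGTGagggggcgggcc
CRY2, 64 bases before the same start, chr11:45847399-45847428, plus strand: ttgcggcgtcatAGGTCActgggcgggcta
PER2, 197 bases before the start, chr2:238288790-238288819, minus strand: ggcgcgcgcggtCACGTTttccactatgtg
PER2, 3 bases before the start, chr2:238288596-238288625, minus strand: ccccgctgcggcTTACGTAAccgccgccgg
PER3, 177 bases before the upstream of its starts, chr1:7784102-7784131, plus strand: cgagcccgcgcgTTATGTAAcgcgccccgg
AACGTG in CRY1 and CRY2 is CACGTT read from the other strand. The NR1D2 window holds CACGTG again at 105 bases before the start, and the window of DBP holds none of the 4 elements.

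Levels are values of robust multi-array averaging (RMA) on the log2 scale, where a difference of 1 is 2-fold, and differences are siKMO minus control. Each gene is represented by its strongest probe set by mean level, and it counts as measured where that mean reaches 6. RMA gives weak transcripts a background level in place of 0. As a guide to it, 57 probe sets of 25 genes of other tissues and cell types, such as liver, muscle, leukocytes and endothelium, reached at most 5.91 in control and 5.57 in siKMO, and their differences ran from -0.79 to 0.44. The 6 markers of the line (VIM, CD44, EGFR, AXL, CAV1 and MSN) lay between 9.76 and 12.96 on both arrays with their strongest probe sets (differences from -0.65 to 0.64 over all 30, weak ones included), and the hormone receptors ESR1 and PGR at 4.84 or less. The 3 probe sets of KMO itself lay between 2.11 and 2.95 on both arrays, under the level that could check the knockdown. The median difference over the 8997 measured genes was 0.04.

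With their strongest probe sets and no level minimum, 7 of the 8 clock genes stood lower in the siKMO array, against 45.2% of all genes. BHLHE40 was lower by 1.82-fold, CLOCK by 1.37-fold and NR1D2 by 1.14-fold, while CRY1 was higher by 1.20-fold. PER2 and DBP gave the widest gaps, at levels near background: PER2 passed 6 only in the control array, and DBP on neither. Of the 18 probe sets, 14 were lower, 3 higher and 1 identical, against 44.5% of all probe sets lower. Of the 4 measured members (CRY1, NR1D2, BHLHE40 and CLOCK), 3 were lower, against 44.1% of measured genes. 1 of the 4, BHLHE40, was lower by at least 1.5-fold, against 5.41% of measured genes (10.6% in either direction), and 0 were lower by 2-fold, against 1.39%. With 4 genes these shares describe the genes and give no rate. The median difference of the 4 was -0.32. PER2, PER3, CRY2 and DBP were not measured by the minimum, and each of their strongest probe sets was lower as well.

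**Figure D1:**
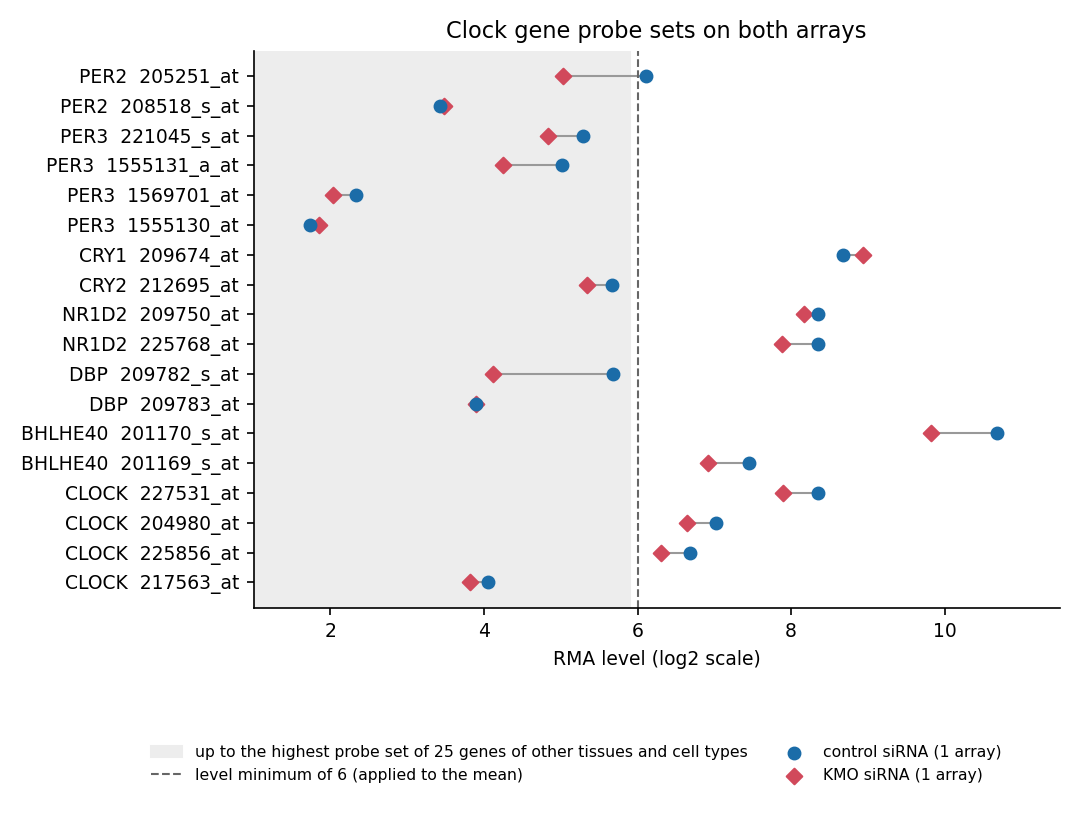
RMA levels (log2 scale, horizontal axis) of the 18 clock gene probe sets, named by gene and probe set, with a circle for the control siRNA array and a diamond for the KMO siRNA array; the shaded range reaches 5.91, the highest probe set of the other-tissue genes, and the dashed line marks 6. All points of BHLHE40, CRY1 and NR1D2 lie to the right of the line, whereas both arrays of PER3, CRY2 and DBP lie in the shaded range.

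CLOCK, the activator of the core pair, stood lower with every probe set. Its strongest probe set, 227531_at, was 8.35 in control and 7.89 in siKMO, a difference of -0.46. The probe set 204980_at gave 7.02 and 6.65, and 225856_at gave 6.68 and 6.31, differences of -0.37 each. The weak 217563_at gave 4.06 and 3.82, a difference of -0.24. The 4 probe sets thus ran one way, but the weak one lay within the levels and differences of the other-tissue probe sets. The direction therefore rests on the 3 whose mean reached 6, and 8.17% of measured genes were at least as low as the strongest of them. None of the 4 reached 1.5-fold. Probe sets of 1 gene read the same pair of cultures, so they check the measurement and not the treatment.

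BMAL1, BMAL2 and NPAS2, the relative of CLOCK, did not share one direction. BMAL1, its usual partner, was 6.33 in control and 6.12 in siKMO, a difference of -0.21, with the other probe set at -0.12. NPAS2, which can replace CLOCK, was 7.34 and 7.59, a difference of 0.25, but its other probe sets past the minimum gave -0.05 and 0.08, so its direction was not settled. BMAL2, which can stand in for BMAL1, was 7.98 and 8.27, with 0.25 to 0.29 over 3 probe sets.

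Among the repressors, PER2 was lower and CRY1 higher. The PER proteins carry CRY and a casein kinase into the nucleus, and PER2 is itself a target of the E-box. The PER2 probe set 205251_at was 6.11 in control and 5.03 in siKMO, a difference of -1.08. With the siKMO level taken as 6, the difference is -0.11. The difference lay outside the range of the other-tissue probe sets, and 1.09% of the 10961 probe sets with a mean of 4 to under 6 were at least as low. The other PER2 probe set, 208518_s_at, stood at background with 3.43 and 3.48, a difference of 0.06, so the lower level of PER2 rests on a single probe set.

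PER3, whose loss is tolerated better by the clock than that of PER2, stood at background throughout. Its probe set 221045_s_at gave 5.29 in control and 4.83 in siKMO, a difference of -0.46. The probe set 1555131_a_at gave 5.02 and 4.24, a difference of -0.77, with 2.27% of probe sets of that level range at least as low. The remaining pair lay between 1.73 and 2.34 on both arrays, with differences of -0.31 and 0.12. All 4 lay within the levels of the other-tissue genes and within the range of their differences.

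The CRY proteins bind the CLOCK and BMAL1 pair and block it, and CRY1 is the stronger repressor. CRY1 was 8.67 in control and 8.94 in siKMO with its only probe set, a difference of 0.26; 23.5% of measured genes were at least as high. It was the only measured member with a higher level. CRY2 was 5.67 and 5.34, a difference of -0.33, on both arrays within the levels of the other-tissue genes. The opposite signs of CRY1 and CRY2 therefore set a well detected transcript beside a weak one, and neither difference reached 1.5-fold.

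In the loop that controls BMAL1, NR1D2 (REV-ERB beta), a heme-binding repressor, was lower with both probe sets. The probe set 209750_at was 8.35 in control and 8.17 in siKMO, a difference of -0.19, and 225768_at was 8.35 and 7.88, a difference of -0.47. The direction was shared, but the size was not settled between them. NFIL3 (E4BP4), a repressor that opposes DBP at the D-box and is itself repressed by NR1D receptors, was 8.74 and 8.24, a difference of -0.51. RORA and RORB, the activators of this loop, had no probe set above 4.13 on either array.

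DBP, an activator at the D-box and one of the most strongly rhythmic transcripts in many tissues, gave the widest difference of all members. Its probe set 209782_s_at was 5.69 in control and 4.12 in siKMO, a difference of -1.57, or 2.97-fold on the deposited scale. Of the probe sets with a mean of 4 to under 6, 0.301% were at least as low, whereas 1.24% were lower by at least 2-fold. Both levels lay under 6, and the control level lay under the highest other-tissue probe set, PECAM1 at 5.91, so a fold of the transcript cannot be given. The other DBP probe set, 209783_at, read 3.90 on both arrays, and identical values occurred in 8.56% of all probe sets. The relatives of DBP were weak too: TEF was 5.67 and 5.17, a difference of -0.50, and HLF 3.11 on both arrays.

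**Figure D2:**
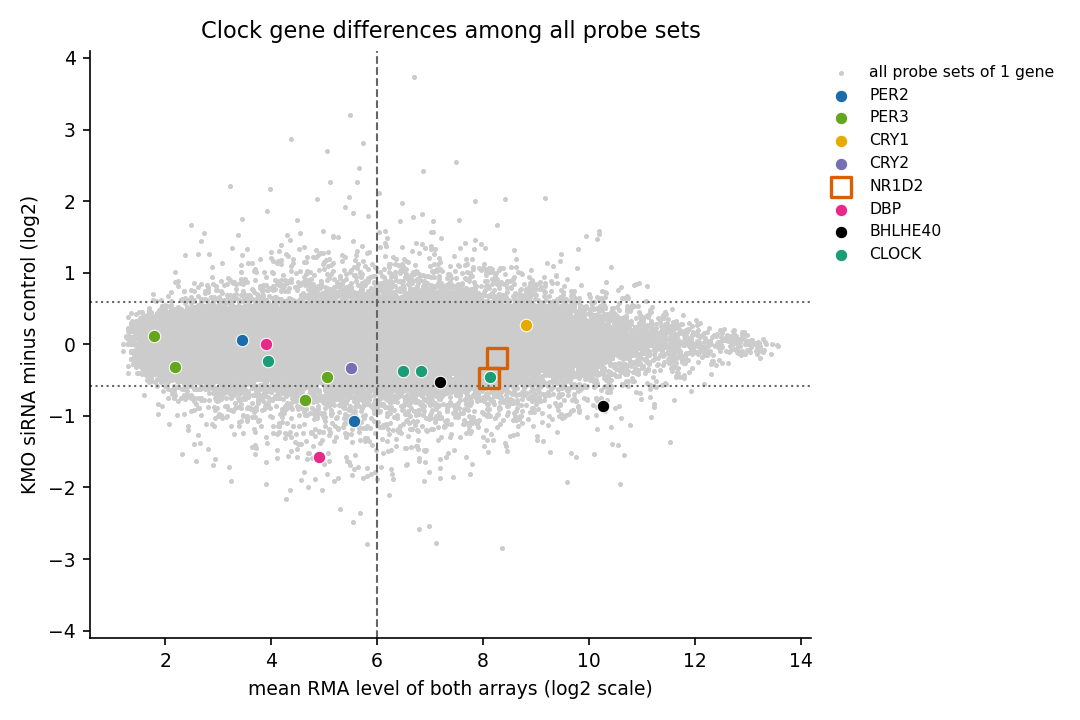
Difference between the KMO siRNA and control arrays (log2, vertical axis) against the mean level of both arrays (log2 scale, horizontal axis) for all probe sets of 1 gene in grey and the clock gene probe sets in colour, NR1D2 as open squares; dotted lines mark 1.5-fold and the dashed line a mean of 6. DBP at -1.57 and PER2 at -1.08 lie left of the dashed line, and to its right BHLHE40 at -0.87 is the clock probe set past 1.5-fold.

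BHLHE40, an E-box repressor that also responds to hypoxia, cytokines and growth signals, had the widest difference among measured members. The probe set 201170_s_at was 10.69 in control and 9.82 in siKMO, a difference of -0.87, and 201169_s_at was 7.45 and 6.92, a difference of -0.53 or 1.44-fold. Both probe sets were lower, and 1 of them passed 1.5-fold. For the first, 2.08% of measured genes were at least as low. Its relative BHLHE41 was 6.73 and 6.86, a difference of 0.13. Its other 3 probe sets, at 4.69 or less on both arrays, were at background. The 2 DEC genes stood on opposite sides of 0, and the difference between them has no replicate check.

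The rest of the clock network was read from a list of 18 further clock genes, all with probe sets and 12 of them measured. Of the 12, 5 were lower, 6 higher and GSK3B, a kinase of several clock proteins, was identical on both arrays at 7.81. The median was 0.04, the same to 2 decimals as over all measured genes. TIMELESS was higher by at least 1.5-fold, at 6.77 in control and 7.45 in siKMO (0.68), against 5.19% of measured genes; in human cells it is best known as a replication fork protein. CSNK1D, a casein kinase that marks PER proteins for breakdown, was past 1.5-fold in the other direction with 1 probe set (8.55 and 7.97, -0.59) but not with the next (0.01), so its difference was not settled. The related kinase CSNK1E differed by 0.07. CIPC, a further inhibitor of CLOCK, was 6.33 and 5.84, a difference of -0.50, or -0.33 with the weaker level taken as 6. Of the ubiquitin ligase subunits that recognise PER proteins, BTRC differed by 0.39 and FBXW11 by -0.24 (-0.45 with its other probe set). CIART, RORA, RORB, TEF, HLF and FBXL21P were under the minimum.

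A list of genes known to be driven by the clock in various tissues was read as well. It was chosen with earlier results of these data known, so its counts give no independent check. Of 11 listed, 10 had probe sets and 6 were measured. All 6 were lower, against 44.1% of measured genes, and 3 of them by at least 1.5-fold, against 5.41%. The median was -0.61, beside 0.04 over all measured genes. CDKN1A, the cell cycle inhibitor p21, was 8.45 in control and 7.72 in siKMO, a difference of -0.73. KLF10, a zinc finger repressor, was 9.78 and 9.08, a difference of -0.70. PPARA, a nuclear receptor of fatty acid breakdown, was 7.14 and 6.49, a difference of -0.65, with its other measured probe set at -0.78. NAMPT, the enzyme that limits NAD salvage, differed by -0.57 and by as much as -1.08 over 4 probe sets. The mitotic brake WEE1 differed by -0.30, with both probe sets alike, and ALAS1, the first enzyme of heme synthesis, by -0.21. Each of these genes also answers to signals other than the clock, and the part of the clock in their levels was not tested. KLF15, PPARGC1A, USP2 and AVP were under the minimum.

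**Figure D3:**
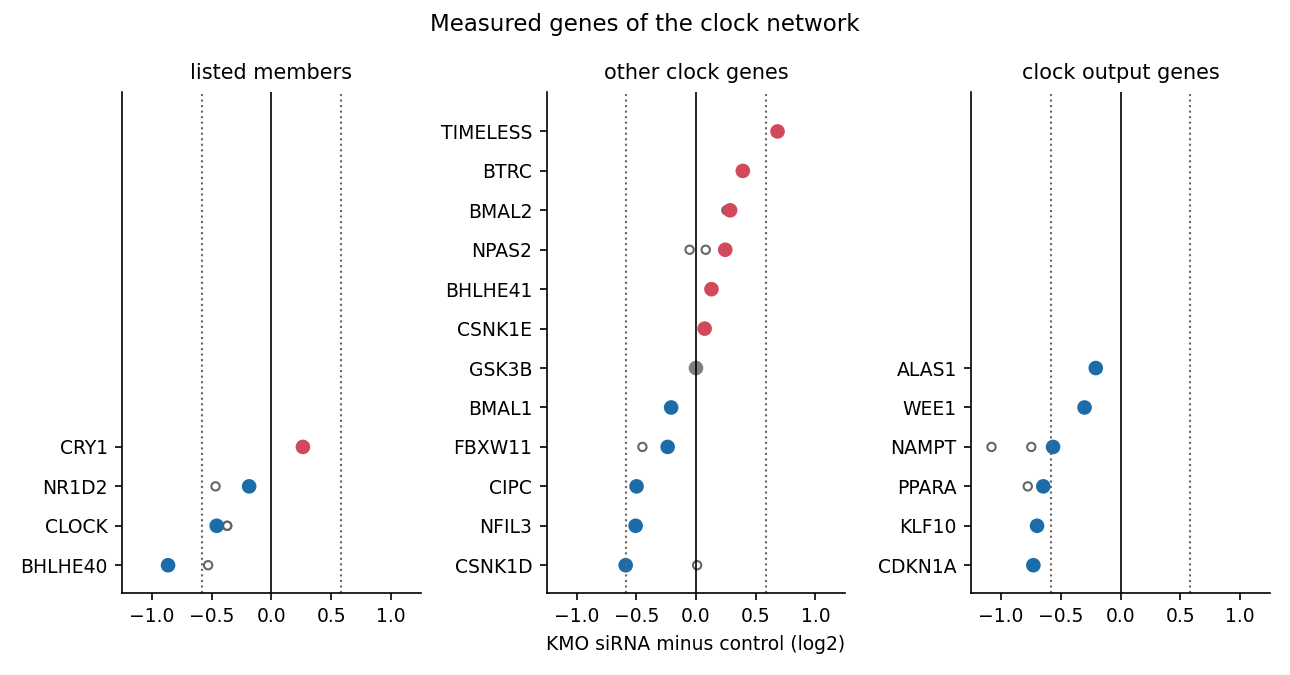
Difference between the KMO siRNA and control arrays (log2, horizontal axis) of the measured genes in 3 panels, the listed members, other clock genes and clock output genes; filled points are the gene values (blue lower, red higher, grey identical), open circles are further probe sets whose mean reaches 6, and dotted lines mark 1.5-fold. BHLHE40 at -0.87 and TIMELESS at 0.68 are the extremes of the gene values, and all 6 output genes lie left of 0.

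Of the 6 members with both a level and an E-box or its variant, 5 were lower and 1, CRY1, was higher. With no level minimum, 45.2% of all genes were lower. PER2 and CRY2 among the 6 were under the level minimum. BHLHE40 and NR1D2, with CACGTG, differed by -0.87 and -0.19; CLOCK, CRY1, CRY2 and PER2, with CACGTT, by -0.46, 0.26, -0.33 and -1.08. Of the other clock genes, 15 had a window, and CACGTG stood in windows of 5. CIPC, TIMELESS and BHLHE41 were measured and differed by -0.50, 0.68 and 0.13, and TEF and CIART, under the minimum, by -0.50 and -0.20. CACGTT stood in a window of 1, CSNK1E, which differed by 0.07. Among the members, DBP, with the widest difference (-1.57), and PER3 (-0.46) had neither form in their windows and were lower as well. A tie between these elements and the levels was not tested. RNA was taken from whole dishes, so fewer cells with a transcript and less of it per cell cannot be told apart.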

How the data were processed

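The authors deposited log2 values made by RMA, per the labels' design text. Affymetrix Expression Console is the tool in the submitters' processing notes. RMA corrects background, quantile normalizes arrays and summarises each probe set, which hides shifts shared by all transcripts and compresses weak differences. Its version is not given in the sources used here, nor which arrays were normalized as a set.

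Probe sets were named through the platform annotation, with symbols updated by gene identifier to RefSeq (41037 of 41091 matched; 54 kept their symbol). 1801 probe sets with several genes named none. Python 3.11.15 with pandas 2.3.3 and matplotlib 3.10.9 was used. The counting at 2-fold was checked on simulated data with larger changes, and the 1.5-fold calls were not checked in this way. With 1 array per group no test was run, and precision is limited by the number of arrays. Called means past 1.5- or 2-fold. The members, lists and settings were chosen with earlier results of these data known, and the range of 4 to under 6 for weak probe sets after their values were seen. All 10 members and all measured genes of both lists are named; no gene of like pattern is named, since 2 arrays give a single difference. Alternatives were the minimum level, the gene value, the probe sets used, the scaling and a floor at 6.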

Additional observations from a re-analysis of the deposited data

How the results depend on the processing

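No paired analysis was possible because each condition had 1 array. No measured member changed sign under any alternative setting. Every probe set of each measured member already shared its sign, so only the changes of scaling could have turned it. Counts moved with the genes admitted and with how a gene's value was formed. With a minimum of 5, 2 of 7 members were called at 1.5-fold and 1 at 2-fold, all lower, with a median of -0.46. Over all genes at that minimum, 10.9% passed 1.5-fold in either direction and 1.53% were lower by 2-fold. With no minimum, 3 of 8 members were called at 1.5-fold and 2 at 2-fold, all lower, with a median of -0.46. Of 10 output genes, 5 then passed 1.5-fold, 4 lower and 1 higher. The shares over all genes were 7.48% in either direction at 1.5-fold and 1.08% lower at 2-fold. Leaving out _x_at and _s_at probe sets leaves no BHLHE40 probe set. It also removes the called probe sets of TIMELESS, CSNK1D, CDKN1A and KLF10. Of the genes still measured, 0 of 3 members, 0 of 8 other clock genes and 1 of 3 output genes were called at 1.5-fold, against 11.3% of all. The median of the members was -0.19, and DBP, under the minimum, differed by 0. Averaging every probe set of a gene, 0 of 7 other clock genes were called at 1.5-fold, against 8.76% of all measured genes in either direction. TIMELESS was then under the minimum and not counted, although both of its probe sets were higher. Averaging those at 6 or above, 1 of 12 was called (TIMELESS), against 10.0%. The other 32 of 45 recomputed counts and medians stayed within 1.5 times the count or 0.1 of the median. In an alternative added after seeing the data, single weaker probe sets turned the sign of PER2 (0.056) and PER3 (0.12). Weak signal over background limits PER2, PER3, CRY2 and DBP.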

Other observations

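Probe sets that the annotation assigns to a listed clock gene together with another gene name neither gene and entered no count. The 4 probe sets shared by PER1 and MIR6883 read 6.47 in control and 6.08 in siKMO, 5.67 and 4.66, 3.93 and 4.40, and 3.43 and 2.94, differences of -0.40, -1.01, 0.47 and -0.49. The 3 probe sets shared by NR1D1 and THRA read 7.24 and 6.76, 4.46 and 4.07, and 3.06 and 2.57, differences of -0.49, -0.39 and -0.49. Thus 3 of 4 and 3 of 3 were lower in the siKMO array, against 44.5% of all probe sets of 1 gene. Only the first probe set of each pair of genes reached 6, and the others lay within the levels of the other-tissue genes. Which of the paired genes they measure was not tested.

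Among output genes under the level minimum, PPARGC1A, a coactivator of mitochondrial genes, read 4.37 in control and 5.22 in siKMO (0.84) with its stronger probe set and -0.24 with the other, and KLF15 read 5.74 and 5.14 (-0.60), with its other probe set identical on both arrays.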
